A study of Homo sapiens with 8 samples.

Results

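The 2 metastatic derivatives of the human prostate carcinoma line 22Rv1, named M3-2 and M3-1 in the labels, were compared gene by gene. The members of this comparison were the 4 arrays whose titles carry these names, 2 for M3-2 and 2 for M3-1, out of 8 in the series. 22Rv1 is a prostate carcinoma line grown from a xenograft. Both M3-2 and M3-1 were labelled as metastatic tumours obtained by growing 22Rv1 in animals. The other 4 arrays were 2 of a primary tumour derivative of 22Rv1 and 2 of the parental cells, which carry a luciferase label (Luc2). Whether the derivatives carry that label is not stated. No age, treatment or allele beyond this was given for any group. Each derivative is a single line. What "M3" stands for, where the metastases grew, how many animals were used and whether cultured cells or tissue gave the RNA is not stated. Since the labels do not describe the replicates of a line as independent cultures, every p-value here reflects array-to-array spread that may be purely technical. All values are log2 intensities of single-colour Illumina bead arrays, on which 1 unit is a 2-fold difference. A level of 6.53 or less is called not above background. Differences are M3-2 minus M3-1 on the log2 scale unless given as folds, and "rose" or "fell" says what a called gene did in M3-2 relative to M3-1.

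Cancer cells that spread often change their lineage program, that is, the set of transcription factors, surface proteins and secreted products typical of a cell type. Prostate luminal cells are marked by keratins, kallikreins and the factors FOXA1 and HOXB13. Goblet cells of the gut secrete mucus together with REG4, AGR2 and trefoil factors, and form under the transcription factor ATOH1, which Notch signalling represses. Enteroendocrine cells of the same epithelium release peptide hormones from granules that contain granins.

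Both lines carried markers of prostate epithelium. FOXA1, a factor that opens chromatin, had log2 intensities of 12.83 and 12.90 in M3-2 and 12.92 and 12.81 in M3-1. HOXB13, a prostate homeobox factor, had 9.94 and 9.80 in M3-2 and 10.02 and 9.92 in M3-1, and the epithelial adhesion gene EPCAM was at 12.52 or more on all 4 arrays. KLK3, which encodes prostate-specific antigen, was not above background in any of the 4 groups. Of 10 endothelial markers, 0 were above background. Of markers with a probe, 3 of 12 leukocyte and 2 of 6 adipocyte ones were above background on at least 2 arrays of the series. So were 4 of 9 bone and cartilage and 2 of 7 lung epithelial ones. Only the bone marker ALPL was called among these, lower in M3-2 (-0.67). Arrays of a line were closely alike, with a correlation across genes of 0.993 in M3-2 and 0.997 in M3-1 and an SD between arrays of 0.16 in M3-2 and 0.10 in M3-1. Between the line means the root mean square difference was 0.23.

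Among the largest differences were those of CEACAM6, REG4 and AGR2, genes of mucosal epithelium that were higher in M3-2, and of the lipid enzyme LPIN2, the oxidase MAOA and the kallikrein KLK11. ELF5, an epithelial factor, and the germ cell antigen MAGEC2 led the genes lower in M3-2. Of 12379 genes, 303 (2.45%) differed at an adjusted p below 0.05 by limma with Benjamini-Hochberg adjustment, and they are called changed. In M3-2 174 genes (1.41%) were higher and 129 (1.04%) lower than in M3-1. At least 2-fold differences were found for 52 higher and 22 lower genes, and at least 4-fold differences for 11 and 2. Among the called genes, 34 higher ones were not above background in M3-1, and 11 lower ones were not above background in M3-2. The smallest called difference was 0.50, and the arrays of the lines did not overlap for any called gene. With 2 arrays a line, genes called at such differences are nearly bound to separate, so this adds no support. In bulk RNA fewer cells of a type and less RNA per cell cannot be told apart. The number of called genes depended on the arrays in the fit. It was 136 without M3-2 replicate 1, 100 and 94 without M3-1 replicates 1 and 2, 492 without either parental array, and 484 when only the 4 arrays of both lines were fitted.

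**Figure D1:**
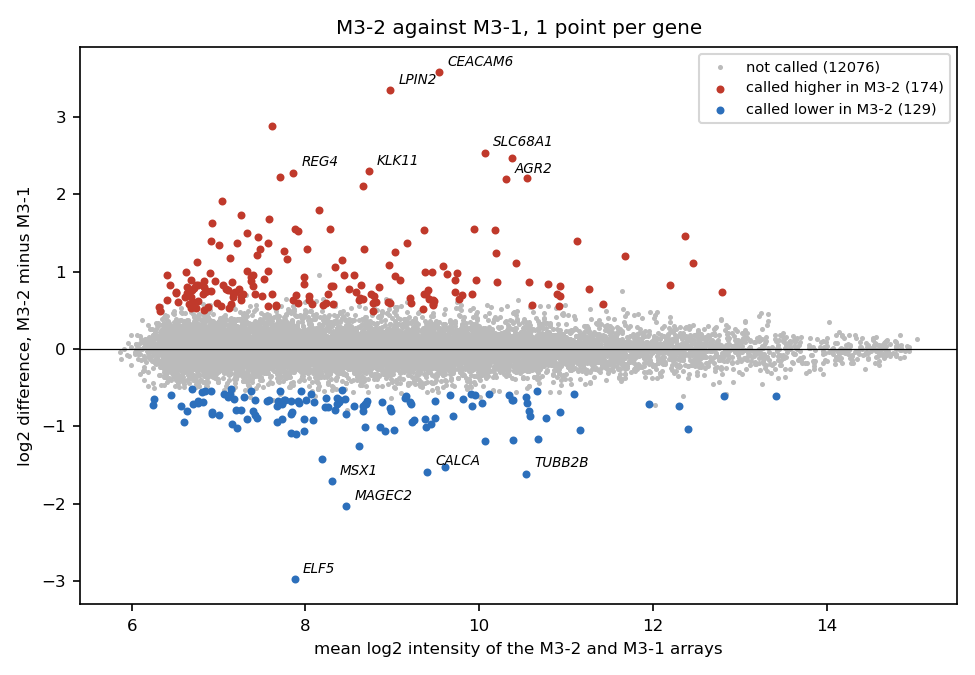
Each point is 1 of 12379 genes; the horizontal axis gives the mean log2 intensity of the M3-2 and M3-1 arrays and the vertical axis the log2 difference, M3-2 minus M3-1. Red points are the 174 genes called higher in M3-2, blue points the 129 called lower, and called genes occur from dim to bright levels.

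CEACAM6, a cell adhesion glycoprotein on the surface of mucosal epithelium, showed the largest difference. Its log2 intensity was 11.40 and 11.26 in M3-2 and 7.86 and 7.65 in M3-1, with 7.91 and 7.74 in the primary tumour and 8.0 and 8.23 in parental cells. M3-2 alone was high, and the other 3 groups lay close together. The difference was 3.57 (SE 0.14, adjusted p = 1.03e-08), or 11.9-fold. CEACAM5, its relative and the carcinoembryonic antigen, had 7.26 and 7.0 in M3-2 and was not above background in the other groups, so that it was at least 1.51-fold higher in M3-2 than in M3-1. The CEACAM genes are similar in sequence, and probes may not separate them fully.

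REG4, a secreted lectin of intestinal secretory cells, had 8.66 and 9.34 in M3-2 and 6.85 and 6.59 in M3-1 (difference 2.28, SE 0.22, adjusted p = 4.72e-05). The primary tumour arrays had 7.21 and 7.54 and the parental arrays 6.45 and 7.01, all below both M3-2 arrays. AGR2, a disulfide isomerase needed to fold mucins, had 11.47 and 11.35 in M3-2 and 9.22 and 9.21 in M3-1 (difference 2.19, adjusted p = 1.92e-05). Here the parental level, 9.99 and 10.78, lay between the lines, and the primary tumour level, 9.15 and 9.27, was close to M3-1. LGALS4, a galectin of gut epithelium, differed in another way. It was high in both lines, at 12.15 and 12.41 in M3-2 and 11.14 and 11.02 in M3-1, and lower in the primary tumour (8.96 and 9.11) and in parental cells (7.61 and 7.49). Its difference between the lines was 1.20 (adjusted p = 0.000155).

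In the gut-type mucosal list 5 of 12 measured members rose and 0 fell, against 1.41% and 1.04% of all genes, and the median difference of the list was 0.53 against -0.0077 over all genes. The 5 genes are the ones just described. The other 7 did not pass: AGR3 (0.58), S100P (0.47), VIL1 (0.18), GPA33 (0.08), MUC13 (0.02), CDH17 (-0.25) and TSPAN8 (-0.25). MUC2, TFF3, CDX2 and KRT20 were not above background and are not counted among the 12. The filter kept CEACAM5 only through the arrays where it was high. The list was also chosen with earlier results of these data known. The share of 5 in 12 is therefore a description and adds no support of its own.

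The next genes are the goblet cell genes SPINK4 and BEST2, followed by HES6 and LFNG of the Notch list and by KLF4. SPINK4, a protease inhibitor made by goblet cells, had 8.10 and 7.89 in M3-2 and was not above background in the other 3 groups (6.09 and 6.08 in M3-1). It was at least 2.76-fold higher in M3-2 than in M3-1. The filter kept SPINK4 only through its M3-2 arrays, where it was high, so its adjusted p (1.58e-06) adds no support. BEST2, an anion channel of colonic goblet cells, had 8.85 and 8.80 in M3-2 and 6.62 and 6.58 in M3-1, a difference of 2.23 (adjusted p = 1.62e-07). HES6, a Notch pathway factor that favours differentiation, had 11.65 and 11.67 in M3-2, 9.47 and 9.42 in M3-1, 10.33 and 10.12 in the primary tumour and 9.75 and 9.41 in parental cells. M3-2 was above every other array for each of these 3 genes. LFNG, which modifies Notch receptors, and the epithelial factor KLF4 rose by 1.55 and 1.08. HES6 and LFNG were the called members among 12 of the Notch list, against 2.45% called over all genes.

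Other genes of goblet and enteroendocrine cells were chosen after their values were seen, so their number supports nothing. ATOH1 had 7.23 and 7.39 in M3-2 and 6.22 and 6.16 in M3-1, where it was not above background, and was at least 1.71-fold higher in M3-2. The glucagon gene GCG was at least 2.11-fold higher, and ZG16, a granule lectin of goblet cells, at least 2.21-fold, and neither was above background in M3-1. ST6GALNAC1, which adds sialic acid to mucin glycans, rose by 1.26, and carboxypeptidase CPE, which trims peptide hormones, by 0.86. The goblet and enteroendocrine list drawn up in this way, which also holds REG4, had 27 measured members. Of these 15 rose, 1 fell and 11 did not pass. The trefoil peptide TFF2 fell by 0.85, and SPDEF and FCGBP differed by 0.04 and 0.21 and did not pass. CLCA1, RETNLB, ITLN1, TFF1, NEUROG3, PYY and SST were among the members not above background.

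The windows of 250 bases before the annotated start are shown for 3 pairs of these genes, to give the sequence beside a gene that was high in M3-2 (RefSeq, GRCh38.p14, 5′ to 3′ on the gene's strand). All 6 genes were found in that table. CEACAM6 (chr19:41755280-41755529, plus strand) and CEACAM5 (chr19:41708376-41708625, plus strand) are family members next to each other among the measured genes. REG4 (chr1:119811461-119811710, minus strand) and AGR2 (chr7:16805000-16805249, minus strand) followed CEACAM6 among the mucosal genes. SPINK4 (chr9:33239917-33240166, plus strand) and GCG (chr2:162152248-162152497, minus strand) were not above background outside M3-2. Capitals mark CACGTG in the CEACAM pair, TTTATG in REG4 and AGR2 and CAGATG in SPINK4 and GCG, on either strand, so that CATAAA and CATCTG are the reverse complements.
CEACAM6: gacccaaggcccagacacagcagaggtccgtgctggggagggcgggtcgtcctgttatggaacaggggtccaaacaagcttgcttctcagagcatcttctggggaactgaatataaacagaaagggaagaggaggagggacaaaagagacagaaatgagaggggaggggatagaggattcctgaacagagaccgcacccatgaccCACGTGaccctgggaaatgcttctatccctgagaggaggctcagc
CEACAM5: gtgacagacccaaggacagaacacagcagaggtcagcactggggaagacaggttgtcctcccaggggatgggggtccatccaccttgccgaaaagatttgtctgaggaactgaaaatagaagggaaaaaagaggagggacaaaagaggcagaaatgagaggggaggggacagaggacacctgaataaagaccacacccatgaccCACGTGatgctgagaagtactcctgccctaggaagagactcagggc
REG4: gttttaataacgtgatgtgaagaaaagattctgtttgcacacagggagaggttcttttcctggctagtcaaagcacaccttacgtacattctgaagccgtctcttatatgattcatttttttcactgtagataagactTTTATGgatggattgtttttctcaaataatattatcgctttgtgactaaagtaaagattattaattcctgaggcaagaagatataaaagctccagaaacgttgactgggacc
AGR2: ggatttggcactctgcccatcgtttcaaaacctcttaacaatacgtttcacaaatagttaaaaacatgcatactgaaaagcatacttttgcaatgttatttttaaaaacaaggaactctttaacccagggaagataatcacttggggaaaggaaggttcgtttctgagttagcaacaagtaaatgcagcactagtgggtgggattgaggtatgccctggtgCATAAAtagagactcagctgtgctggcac
SPINK4: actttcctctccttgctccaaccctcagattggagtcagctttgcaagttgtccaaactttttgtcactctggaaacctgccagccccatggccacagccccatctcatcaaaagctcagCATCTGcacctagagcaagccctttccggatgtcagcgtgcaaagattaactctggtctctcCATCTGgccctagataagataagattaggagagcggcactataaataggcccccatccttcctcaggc
GCG: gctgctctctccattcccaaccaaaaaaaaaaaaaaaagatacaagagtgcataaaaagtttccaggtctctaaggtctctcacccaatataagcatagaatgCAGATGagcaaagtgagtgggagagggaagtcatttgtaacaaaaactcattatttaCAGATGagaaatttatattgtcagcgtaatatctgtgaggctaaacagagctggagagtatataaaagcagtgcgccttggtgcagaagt

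The CEACAM6 and CEACAM5 windows were identical at 194 of 260 aligned positions (74.6%), and both held CACGTG, 45 to 40 and 46 to 41 bases before the start. Among 35116 promoter windows of the same length 6.34% held this motif. TTTATG was found in 9.64% of them and CAGATG, present 2 times in SPINK4 and 2 times in GCG, in 12.2%. These were 3 of 10 motifs searched on both strands, and all were chosen after the differences were known. The other searches were for the E-box CAGCTG (found in 14% of windows), the TATA box TATAAA (10.7%), the ETS core GGAAGT (19.5%), the homeobox core TTTATT (16%), the GATA core GATAAG (5.65%), the forkhead core TGTTTAC (2.98%) and the HNF1 core GTTAAT (6.23%). TTTATG also lies in the GCG window, and further matches in these windows are not marked.

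Of 17 measured androgen-responsive genes 4 were higher in M3-2, 0 were lower and 13 did not pass (list median 0.25), against 1.41% higher and 1.04% lower over all genes. They were SLC45A3, the prostein transporter, with 8.52 and 8.21 in M3-2 and 7.26 and 7.16 in M3-1 (difference 1.16, adjusted p = 0.000237), ZBTB16, a repressor of the zinc finger family (0.96), PMEPA1, which restrains TGF-beta signalling (0.70), and HPGD, which breaks down prostaglandins (0.56). SLC45A3 was at 8.32 and 8.44 in the primary tumour and 8.46 and 8.43 in parental cells, so that M3-1 was the low group. KLK11, a kallikrein peptidase, was also lowest in M3-1, with 9.94 and 9.82 in M3-2, 7.53 and 7.63 in M3-1, 9.54 and 9.58 in the primary tumour and 9.20 and 9.03 in parental cells (difference 2.30, adjusted p = 1.85e-07). KLK2 (0.41), TMPRSS2 (0.04) and FOLH1 (0.64) did not pass. The probes of PMEPA1 differed by 0.14 to 0.70, and its call was lost with the mean of probes. The calls of ZBTB16 and PMEPA1 were lost without M3-1 replicate 2.

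Of 14 measured steroid-metabolising enzymes 3 were lower in M3-2, 0 were higher and 11 did not pass (list median -0.06), against 1.04% lower over all genes. AKR1C3, which makes testosterone from a weaker androgen, had 11.89 and 11.89 in M3-2 and 12.96 and 12.87 in M3-1, a difference of -1.03 (adjusted p = 0.000553). AKR1C4 differed by -0.81 and UGT2B17, which conjugates androgens for removal, by -0.65. AKR1C sequences are much alike, as are those of the UGT2B family, and a probe may read more than 1 of them. Detoxification enzymes included 4 higher genes of 19, against 1.41% higher over all genes. MAOA, the monoamine oxidase that breaks down serotonin and noradrenaline, had 11.61 and 11.61 in M3-2 and 9.20 and 9.08 in M3-1 (difference 2.47, SE 0.15, adjusted p = 2.83e-07). The primary tumour (11.12 and 11.42) and parental cells (11.64 and 11.95) were both near M3-2, and M3-1 was the low group again. ALDH1A1, a retinaldehyde dehydrogenase, rose by 1.08, CYP1B1 by 0.67 and CYP4X1 by at least 1.41-fold. ALDH1A1 and CYP1B1 lost the call without any 1 array of M3-2 or M3-1.

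**Figure D2:**
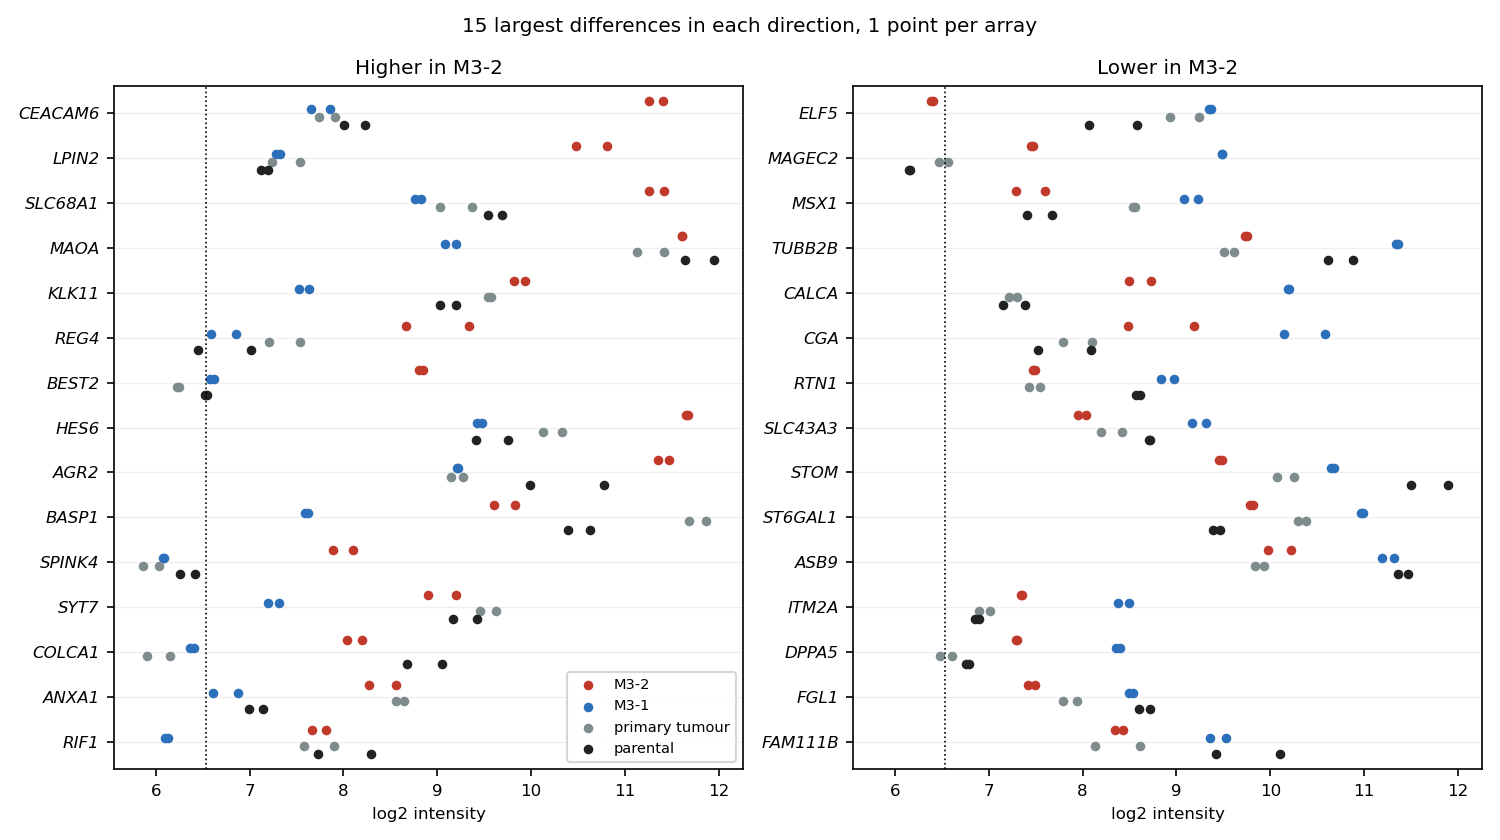
Log2 intensity on every array for the 15 called genes with the largest differences in each direction: M3-2 red, M3-1 blue, primary tumour grey, parental black, and the dotted line at the background level of 6.53. M3-2 stood above all other groups for CEACAM6, LPIN2, SLC68A1, HES6, BEST2 and SPINK4, while M3-1 was lowest for MAOA, KLK11, BASP1, SYT7 and RIF1.

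In the neuronal and endocrine list 3 of 17 measured members were higher in M3-2, 3 were lower and 11 did not pass (list median 0.01), against 1.41% higher and 1.04% lower over all genes. BASP1, a membrane protein of growing axons, had 9.83 and 9.60 in M3-2 and 7.62 and 7.59 in M3-1 (difference 2.11), but 11.69 and 11.86 in the primary tumour and 10.40 and 10.63 in parental cells. The granins CHGB and SCG3 were also higher in M3-2, CHGB at least 1.62-fold and SCG3 by 0.64. CALCA, the calcitonin gene, had 8.72 and 8.50 in M3-2 and 10.19 and 10.20 in M3-1, a difference of -1.58 (adjusted p = 1.40e-05), and was at 7.39 or lower on the other arrays. CGA, the common subunit of glycoprotein hormones, had 8.49 and 9.19 in M3-2 and 10.15 and 10.58 in M3-1 (difference -1.53). DDC, which makes dopamine and serotonin, differed by -0.79. Both hormone genes were thus above parental cells in both lines and higher in M3-1, while CHGB and DDC were below parental cells in both.

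Further neuronal genes named by size followed no single direction. The tubulin gene TUBB2B had 9.73 and 9.75 in M3-2 and 11.36 and 11.34 in M3-1 (difference -1.61, adjusted p = 9.48e-06). RTN1, a reticulon of neuroendocrine cells, fell by 1.42, and its second probe differed by -0.37. SYT7, a calcium sensor of exocytosis, rose by 1.79 with its brightest probe, but 1 of its 3 probes differed by -0.25. CHGA differed by 0.01 and was near background in both lines.

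ELF5, an epithelial ETS factor of secretory glands, showed the largest decrease. It was not above background in M3-2, at 6.38 and 6.40, and had 9.37 and 9.35 in M3-1, 9.24 and 8.93 in the primary tumour and 8.07 and 8.58 in parental cells. M3-2 alone was not above background, and the gene was at least 7.10-fold lower than in M3-1 (adjusted p = 1.85e-07). These values are of its brightest probe, and its second probe differed by -0.75. The cancer-testis antigen MAGEC2, normally confined to germ cells, had 7.47 and 7.45 in M3-2 and 9.48 and 9.49 in M3-1, a 4.08-fold decrease, with 6.47 and 6.57 in the primary tumour and 6.16 and 6.15 in parental cells. The second MAGEC2 probe differed by -0.72. MAGEC2 was the 1 called member of 17 measured cancer-testis genes (5.88%), against 2.45% called over all genes, and the others did not pass. Germ cell genes of the VCX family, which are not in this list, were also called lower and are given with the X chromosome. The homeobox gene MSX1 had 7.60 and 7.30 in M3-2 and 9.23 and 9.08 in M3-1 (difference -1.71, adjusted p = 1.40e-05). In parental cells it was at 7.68 and 7.41, so that here M3-1 was the high group.

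Epithelial structure genes were called in both directions, 3 higher and 1 lower of 25 measured. Over all genes 1.41% were higher and 1.04% lower, which also applies to the next lists. The luminal keratin KRT19 had 12.01 and 11.64 in M3-2 and 10.40 and 10.46 in M3-1 (difference 1.39, adjusted p = 5.52e-05), and KRT8 and the epithelial factor ELF3 rose by 0.71 and 0.63. The desmosomal cadherin DSC2 fell by 0.79, while E-cadherin (CDH1) differed by 0.05 and vimentin (VIM) by 0.00 without passing. In the S100 and annexin list 2 of 14 members rose, S100A6 by 1.54 and ANXA1, an annexin that limits inflammation, by 1.68. Of 18 proteases and inhibitors 3 rose: KLK11, SERPINB5 (maspin, 1.36) and SERPINE2 (protease nexin, 1.11). WIF1, a secreted WNT inhibitor, had 10.79 and 10.64 in M3-2 and 9.13 and 9.21 in M3-1 (difference 1.55), the sole called gene among 18 of the WNT list, and both lines were above the primary tumour and parental arrays, which lay from 7.59 to 7.66. SPOCK2, a matrix proteoglycan, rose by 1.46, and lumican (LUM) differed by 0.40 and did not pass.

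Growth factor genes were called 3 times upward and 1 time downward among 19 measured, against 1.41% higher and 1.04% lower over all genes. IGFBP3, which binds insulin-like growth factors, had 8.08 and 8.01 in M3-2 and 6.62 and 7.05 in M3-1, against 12.91 and 12.52 in parental cells, so that it was low in both lines and lowest in M3-1. HGF, the ligand of the MET receptor, and IGFBP2 rose by 1.06 and 1.00, and FGFR3 fell by 0.57. In the TGF-beta and BMP list FST, an antagonist of activin, rose by 0.71, and BMP2 and the activin subunit INHBB fell by 0.84 and 0.67, of 17 measured. The second FST probe differed by 0.09, and the FST call was lost with the mean of probes. Immediate early genes were also split, KLF4, IER3 and DUSP1 higher and EGR1 (-1.01) and SPRY4 (-0.73) lower, of 28.

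Of 25 measured interferon-stimulated genes 2 were lower in M3-2 and 23 did not pass (list median -0.05), and of 16 antigen presentation genes 1 was lower and 15 did not pass (list median -0.11), against 1.04% lower over all genes. BST2, an interferon-induced membrane protein, had 7.65 and 7.62 in M3-2 and 8.52 and 8.58 in M3-1 (difference -0.91, adjusted p = 0.00187), and IFITM2 fell by 0.70. The immunoproteasome gene PSMB9 was at least 1.34-fold lower. BST2, IFITM2 and PSMB9 lost the call without M3-1 replicate 2, and their adjusted p rose to at most 0.0744, 0.285 and 0.487 over the settings tried.

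Genes of ion transport, metabolism and other functions were called in both directions. The potassium channel subunit KCNG1 had 9.21 and 8.90 in M3-2 and 7.42 and 7.58 in M3-1 (difference 1.55), and the epithelial sodium channel subunit SCNN1A rose by 0.84. The adenosine enzymes ADA2 and NT5E fell by 0.97 and 0.81. These were the called members among 23 of the channel and purine list, against 2.45% called over all genes. FABP7, a fatty acid-binding protein, had 7.64 and 8.50 in M3-2 and 6.65 and 6.5 in M3-1, but 9.98 and 10.31 in the primary tumour (difference 1.5), while ACSL1, which activates fatty acids, fell by 0.90. Of 20 NRF2 targets the glutathione transferase GSTA1 rose by 1.29, with the limit that GSTA genes are alike in sequence, and the export pump ABCC2 fell by 0.68. THBS1, a matrix glycoprotein, was the called gene among 12 of the mesenchymal list (0.66), and the metallothionein MT1E among 16 of its list (0.56). The hypoxia-induced carbonic anhydrase CA12 (-0.74, of 30) and the connexin GJB1 (-0.54, of 17) were likewise alone in theirs. The share called in the hypoxia list, 3.33%, was near that of all genes. Of 25 matrix genes SPOCK2 was higher and the collagen COL9A2 lower (-0.84).

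The remaining genes named by size were COLCA1, at 8.03 and 8.2 in M3-2 and not above background in M3-1 (at least 3.0-fold higher in M3-2), and RIF1, which guards telomeres and broken DNA. RIF1 was at 7.67 and 7.81 in M3-2 and not above background in M3-1 (at least 2.31-fold higher), but its second probe differed by 0.13. Lower in M3-2 were ST6GAL1, which adds sialic acid to glycoproteins, at 9.82 and 9.78 in M3-2 and 10.99 and 10.97 in M3-1, and STOM, a membrane scaffold protein, at 9.48 and 9.45 in M3-2 and 10.64 and 10.68 in M3-1. FAM111B, a protease, and DPPA5, a marker of pluripotent cells, fell by 1.06 and 1.08. ST6GAL1 and ST6GALNAC1 thus differed in opposite directions, although both add sialic acid.

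Of the 74 called genes taken by the naming rule, 49 kept the call in every other setting that gave them a value (17 settings for SPINK4, 18 for the rest) and 25 lost it in at least 1. None of the 74 changed direction. All 25 lost it without M3-1 replicate 2. They were COL9A2, SCNN1A, CGA, IGFBP2, BMP2, BST2, IER3 and ZBTB16, with adjusted p up to 0.0987, AKR1C4, DSC2, ABCC2, KRT8 and FAM111B, up to 0.188, and ALDH1A1, CA12, FST, IFITM2, UGT2B17, INHBB, PMEPA1, THBS1, MT1E, PSMB9, GJB1 and CYP1B1, up to 0.594.

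**Figure D3:**
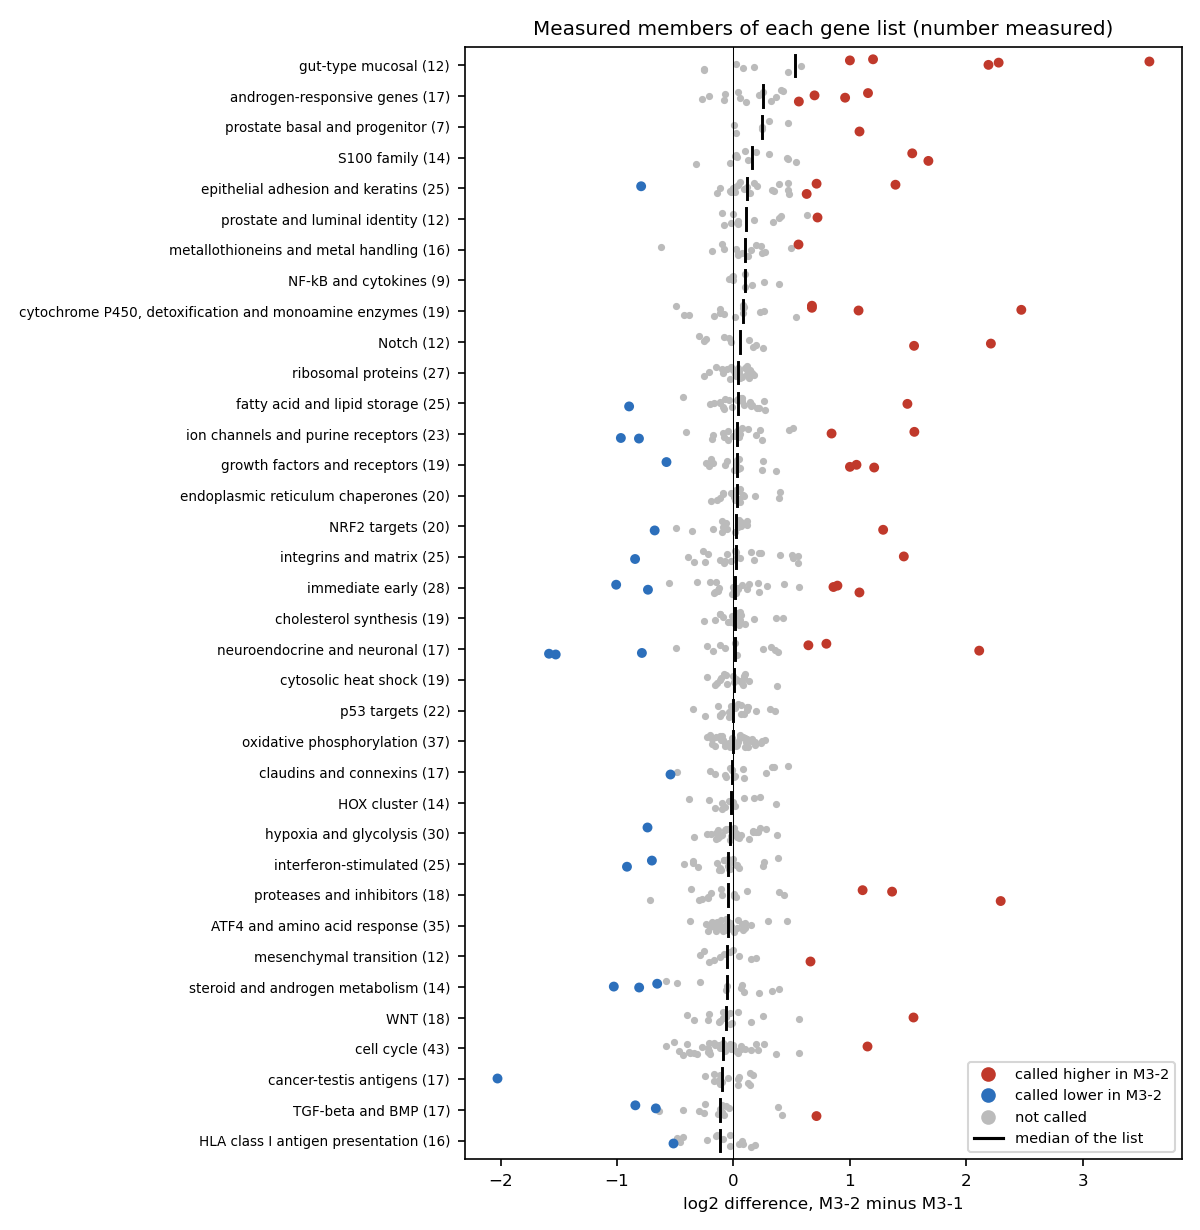
Each row is 1 of 36 gene lists with its number of measured members; points are the log2 differences of the members, M3-2 minus M3-1, red or blue where called, and the black bar is the list median. Medians ran from -0.11 to 0.53, and the highest was that of the gut-type mucosal list.

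Over all 36 pathway lists, 65 of 691 measured genes (9.41%) were called, 42 higher and 23 lower, against 2.45% of all genes. The lists were chosen with earlier results of these data known, and this share is no evidence of its own. In 9 lists 0 members were called. They held NF-kB and cytokine genes, the ATF4 response, endoplasmic reticulum chaperones, heat shock, cholesterol synthesis, oxidative phosphorylation, p53 targets, ribosomal proteins and the HOX cluster. In the cell cycle list 1 of 43 members was called (2.33%), near the share of all genes. It was CDC25A, a phosphatase that starts DNA replication (1.15), while the list median was -0.09 and 12 of the 43 members lay above 0. MKI67 differed by -0.51 (adjusted p = 0.0678). The NRF2 target NQO1, at 13.36 or more on all 4 arrays, differed by 0.05. Most called genes, 238 of 303, stood in none of the lists.

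Genes typical of liver were chosen after the values were seen, so their number supports nothing. Of 20 measured, 12 were lower in M3-2 and 8 did not pass, among them APOA1, F5 and NR5A2 with differences of 0.17, 0.26 and 0.35. FGL1, a fibrinogen-like protein, had 7.42 and 7.50 in M3-2 and 8.50 and 8.54 in M3-1. Its 5 probes differed by -1.06 to -0.05. Complement C5 had 10.56 and 10.71 in M3-2 and 11.78 and 11.59 in M3-1. Albumin (ALB) had 13.15 and 13.09 in M3-2 and 13.78 and 13.67 in M3-1, and was as bright in parental cells (13.52 and 13.84). A1CF, an RNA editing cofactor, and UGT1A1, which conjugates bilirubin, were also lower, A1CF by a difference of -0.80 and UGT1A1 at least 1.33-fold. Of 9 hepatocyte markers 3 were above background, 1 of them (ALB) called, and APOA2, APOB, SERPINA1, AHSG, FGB and TF were not above background. The summed intensity of the 9 ran from 9306 to 9700 in M3-2, from 13672 to 14721 in M3-1, from 4938 to 5535 in the primary tumour and from 12404 to 15274 in parental cells.

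Markers of other cells moved in part with the lines. The alpha-globin genes HBA2 and HBA1, near-identical in sequence, were higher in M3-2 (8.58 and 8.77, against 7.05 and 7.26 in M3-1 for HBA2). Parental cells were higher still, at 10.84 and 10.52, and HBB, ALAS2 and SLC4A1 were not above background. Of 13 fibroblast and smooth muscle markers 5 were above background. ACTA2 fell by 0.64, DCN differed by 0.50 and LUM by 0.40 without passing, and COL1A2, COL3A1, PDGFRB and FAP were not above background. The summed intensity of the 13 ran from 4359 to 5152 in M3-2 and from 3745 to 4212 in M3-1. The part of these cells in the differences was not tested.

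Where the other groups lay was described for the 303 called genes. The parental mean was nearer to M3-1 than to M3-2 for 127 of the 174 genes higher in M3-2 (73.0%) and for 71 of the 129 lower genes (55.0%). The primary tumour mean was nearer to M3-1 for 101 of the higher genes (58.0%) but for 47 of the lower ones (36.4%). Both other groups were nearer to M3-1 for 91 higher and 43 lower genes, as with CEACAM6 and ELF5. Both were nearer to M3-2 for 37 higher genes, as with MAOA, and for 54 lower genes, as with CALCA. Either line could therefore be the one that stood apart. The 198 genes whose parental mean was nearer to M3-1 became 60 and 57 among the fewer genes called without M3-1 replicates 1 and 2, 91 without M3-2 replicate 1, and 306 and 320 among the more genes called without parental replicates 1 and 2. For the primary tumour the 148 genes became 48, 43, 73, 235 and 235 in the same order.

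Set against parental cells, 1499 genes (12.1%) were called in M3-2 and 1220 (9.86%) in M3-1, and 7 were called in opposite directions. These 2 comparisons share the parental arrays. The count for M3-2 was 931 without M3-2 replicate 1, and that for M3-1 was 572 and 571 without M3-1 replicates 1 and 2. The 7 genes were AGR2, SLC68A1, KLK11 and GUCY1A1, all higher in M3-2, and ELF5, TUBB2B and SLC43A3, all higher in M3-1.

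**Figure D4:**
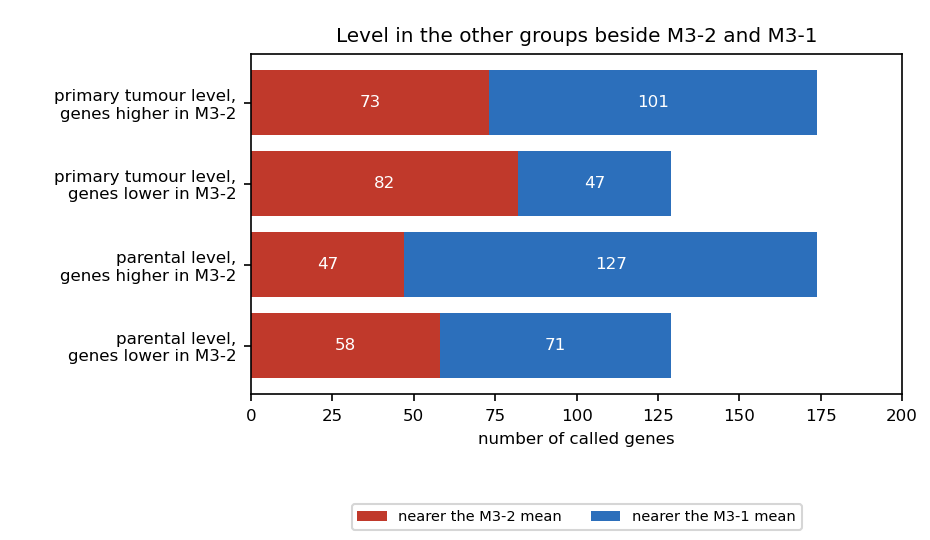
Horizontal bars give the number of called genes whose mean in the primary tumour or in parental cells was nearer to the M3-2 mean (red) or the M3-1 mean (blue), for the 174 genes higher and the 129 lower in M3-2. The longest blue part is that of parental cells for genes higher in M3-2, with 127 genes.

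Some neighbouring genes were called together. Among called genes, 21 pairs were adjacent in the order of measured genes on a chromosome, 20 of them in the same direction, and 10 of these 20 shared a family name, such as CEACAM5 and CEACAM6, KLK11 and KLK12, and TUBB2A and TUBB2B. No test of this was made, the number of such pairs among randomly drawn genes was not worked out, and probes of family members may share signal. On chromosome 10, SLC68A1, named by the rule and annotated as a solute carrier, had 11.26 and 11.41 in M3-2 and 8.77 and 8.83 in M3-1 (difference 2.54, adjusted p = 1.85e-07). The adjacent C10orf95, of unknown function, had 9.20 and 8.92 in M3-2 and was not above background in the other 3 groups, so that it was at least 5.76-fold higher in M3-2 than in M3-1. The filter kept C10orf95 only through its M3-2 arrays. FBXL15, a subunit of a ubiquitin ligase and 3 measured genes away from SLC68A1, rose by 0.89, and CUEDC2, which lies between, differed by 0.02. The other 17 of the 20 measured neighbours did not pass.

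**Figure D5:**
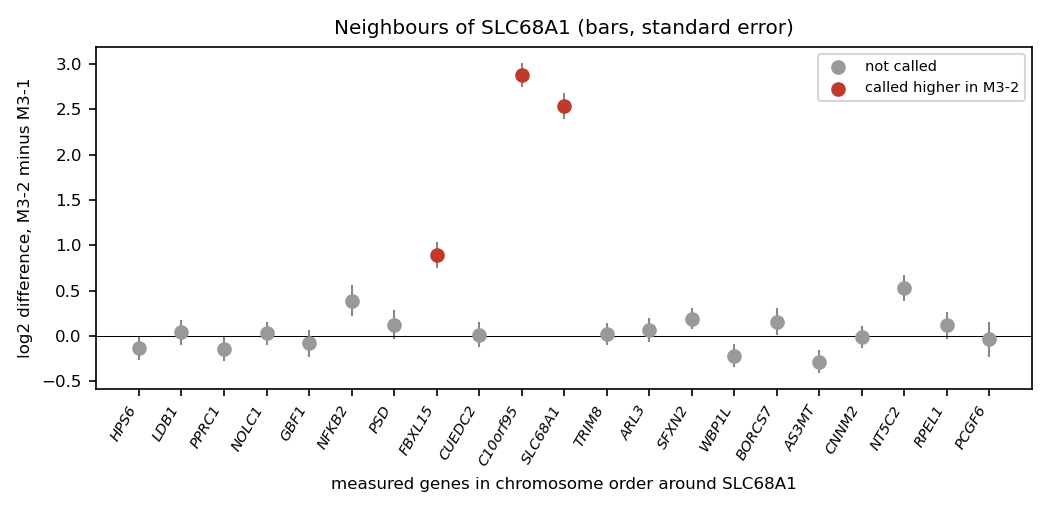
Log2 difference, M3-2 minus M3-1, with its standard error for SLC68A1 and the 10 measured genes on each side in chromosome order (equal spacing, not distance). C10orf95, SLC68A1 and FBXL15 were called higher in M3-2, and the rest were not called.

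The only adjacent pair in opposite directions was EMILIN2 and LPIN2. LPIN2, a phosphatidate phosphatase of lipid synthesis, had 10.81 and 10.48 in M3-2 and 7.33 and 7.28 in M3-1, with 7.53 and 7.24 in the primary tumour and 7.20 and 7.12 in parental cells. The 10.1-fold difference was the second largest among the higher genes, and its second probe rose by 1.46. EMILIN2, a matrix glycoprotein, was not above background in M3-2 (6.27 and 6.21), had 7.04 and 7.04 in M3-1 and was at least 1.42-fold lower.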

How the data were processed

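Per the labels' protocols, column-purified RNA of 8 samples was turned into biotinylated cRNA for Illumina bead arrays. The authors deposited log2 values for 47320 probes; the sources used here do not name the software, background correction or normalization. The deposited arrays share 1 distribution (largest spread at any rank 0.012), and no background was subtracted to 0, so folds of dim genes are understated. A second deposited table was not used, since its 16 per-sample columns match no labels. The planned detection p-values were in that table. The background level was therefore rebuilt from the log2 values: the mode was 6.11, the SD below it 0.18, and the level that a share of 0.01 would exceed was 6.53.

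Probes above it on at least 2 arrays and with 1 gene symbol were kept (30112 probes had 1 symbol, 8 several, 17200 none), and the brightest represented its gene, giving 12379 genes from 16869 probes. Genes not above background outside M3-2, such as CEACAM5, SPINK4, GCG and C10orf95, were kept only through the arrays where they were high. About 43.6% of probes lay above the level on each array, and the number of arrays limits the precision. Differences were fitted with limma 3.58.1 in R 4.3.3 as 4 group means over 8 arrays (lmFit, eBayes, two-sided, 4 residual and 9.34 prior degrees of freedom), adjusted by Benjamini-Hochberg over all genes and called below 0.05. "At least" folds set the group that was not above background to 6.53. The procedure was tested on simulated data.

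The comparison, its members and the gene lists were chosen with earlier results of these data known. The text names the 15 largest called differences in each direction without overlap of arrays (leaving out provisional symbols), up to 3 called members of each list, genes called in opposite directions against parental cells, and 16 set genes, of which 13 were measured. Other genes named were chosen after their values were seen. Of 31 rule-named genes with several probes, all probes had 1 direction in 29, the exceptions being SYT7 and VIM. Chromosome order and promoters came from RefSeq (GRCh38.p14). Alternatives covered the filter, probes, samples fitted, replicate block, weights, normalization, background and leaving out each array.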

Additional observations from a re-analysis of the deposited data

Results flagged for a closer look

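For 7 genes the lines lay on opposite sides of parental cells, each line being called against the parental arrays in its own direction. Both comparisons use the same parental arrays. The difference between the lines was also called for all 7 by limma with Benjamini-Hochberg adjustment. That adds no support, since opposite differences from the same parental mean add up to the difference between the lines. AGR2, the mucin-folding isomerase, was above parental cells in M3-2 by 1.02 and below them in M3-1 (-1.17), a difference of 2.19 between the lines. The transporter SLC68A1 differed from parental cells by 1.72 in M3-2 and -0.82 in M3-1 (2.54 between the lines), and the kallikrein KLK11 by 0.76 and -1.53 (2.30 between the lines). GUCY1A1, a subunit of the nitric oxide receptor, had 7.82 and 7.97 in M3-2 and 6.56 and 6.49 in M3-1, and differed from parental cells by 0.93 in M3-2 and -0.44 in M3-1 (1.37 between the lines). In the other direction, ELF5 differed by -1.93 in M3-2, where it was not above background, and by 1.04 in M3-1 (-2.97 between the lines). TUBB2B differed by -1.01 in M3-2 and 0.60 in M3-1 (-1.61 between the lines), and the amino acid and purine base transporter gene SLC43A3 by -0.72 in M3-2 and 0.53 in M3-1 (-1.25 between the lines).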

How the results depend on the processing

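Of the 303 genes called (174 higher, 129 lower), counts were 484 (269 and 215) with only the M3-2 and M3-1 arrays and 548 (300 and 248) with array weights, which gave parental arrays 0.47 and M3-1 arrays 2.00. Both settings kept all 303. Above a mean log2 value of 7, 213 genes passed, 115 of them higher. Leaving out each array gave 94 to 492 genes, 62 to 275 higher and 32 to 217 lower. A line reduced to 1 array was assumed to vary like the other groups. Against parental cells, M3-2 had 1499 called genes (931 to 1999 without 1 array) and M3-1 had 1220 (571 to 1599). Called list members lower in M3-2 were 37 with only both lines' arrays, against 23. Parental cells nearer to M3-1 were counted for 198 genes, 305 with only both lines' arrays, 351 with weights and 57 to 320 without 1 array. For the primary tumour the count was 148, and 93 above a mean of 7, 234, 270, and 43 to 235. Other settings stayed within 1.5 times. Samples share only replicate numbers: deviations of same-numbered arrays correlated at -0.02 between M3-2 and M3-1, and from -0.18 (M3-1 and parental) to 0.52 (primary tumour and parental) over the 6 pairs of groups. The replicate block gave 387 genes. None of the 74 called genes taken by the naming rule reversed. Uncalled genes near 0 could change sign, as TMPRSS2 did (-0.13 to 0.21), and some genes named outside the rule, such as APOA1, were not followed singly. Every probe tested alone gave 383 called probes. FOLH1 and MKI67 gained a call in 4 and 5 settings. Parental arrays had the widest spread between arrays of a group (SD 0.22). The cause of these changes was not tested.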

Other observations

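By chromosome, called genes were unevenly split in direction on the X chromosome, where 1 of 461 measured genes was higher in M3-2 and 14 were lower. The share called there was 3.25%, against 2.45% over all genes (1.41% higher and 1.04% lower). The higher gene was MAOA, described above. The lower genes included MAGEC2, the SOCS-box gene ASB9 (10.22 and 9.98 in M3-2, 11.32 and 11.20 in M3-1), ITM2A (7.35 and 7.34 in M3-2, 8.38 and 8.49 in M3-1), the matrix proteoglycan BGN (-0.85), the membrane linker MSN (-0.66) and the connexin GJB1 (-0.54). Also lower were VCX (-0.91), VCX2 (-0.68), VCX3A (-0.97) and VCX3B (-0.90), near-identical genes of a germ cell family whose probes may read the same transcripts. On chromosome 17, 9 of 738 measured genes were higher and 0 lower, a called share of 1.22%, below that of all genes. On chromosome 7, 16 of 607 were higher and 3 lower (3.13% called). These splits were noticed in the data and not tested, and the copy number of the lines was not measured here.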
